A study of Mus musculus with 12 samples.

Results

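Intermediate filaments are the rope-like part of the cytoskeleton that gives cells and nuclei their mechanical strength. Of the 23086 gene symbols in the deposited count table, 8 were taken here by symbol: *Nes* (nestin), *Vim* (vimentin), the simple-epithelial keratins *Krt8*, *Krt18* and *Krt19*, and the lamins *Lmna*, *Lmnb1* and *Lmnb2*. All 8 passed the filter on low counts and so were among the 12322 genes tested. They were measured by RNA sequencing in mouse embryoid bodies, aggregates of embryonic stem cells that had differentiated for 2 days. The parent cells were A2lox.cre embryonic stem cells, in which a transgene is switched on by the antibiotic doxycycline. The 4 groups of 3 libraries were the FLAG-Lhx1 mutant line with doxycycline for 16 h, the same line without it, the FLAG-Lhx1 wild-type line with doxycycline for 16 h, and that line without it. LHX1 is a LIM homeodomain transcription factor needed for formation of the head, and FLAG is a short peptide tag. What was changed in the mutant form is unstated in the sources used here. The number of clones per line is unstated too, and the form of LHX1 and any other difference between the lines cannot be told apart.

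The first 5 members build cytoplasmic filaments and the lamins build the lamina under the nuclear membrane. Keratins assemble only as pairs of a type II chain (KRT8) with a type I chain (KRT18 or KRT19), and these are the keratins of simple epithelia and of early embryonic cells. Vimentin is typical of mesenchymal cells and of many cells in culture, and nestin, which polymerises together with vimentin, is best known from neural progenitors. *Lmna* encodes lamins A and C, which are low in pluripotent cells and increase as tissues stiffen and differentiate, while the B-type lamins *Lmnb1* and *Lmnb2* are present in nearly all cells.

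In the mm10 genome (GENCODE M21), *Nes* is at chr3:87971078-87980451 and *Vim* at chr2:13573927-13582826, both on the plus strand. *Krt8* (chr15:101996698-102004482, minus strand) and *Krt18* (chr15:102028180-102032027, plus strand) are divergent neighbours whose starts are 23.7 kb apart, and *Krt19* lies elsewhere, at chr11:100140810-100148665 on the minus strand. In this annotation the only gene overlapping a member's span was Gm36026, a noncoding gene on the opposite strand of *Krt8* that has no row in the table. Processed copies of *Krt8* and *Krt18* in the mouse genome may share reads with them, so levels of these genes are less certain.

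The 250 bases before the RefSeq start (GRCm38.p6) are shown for the genes that were higher in the mutant line in both conditions, *Nes*, *Vim* and *Krt8*, and for *Krt18*, the partner of *Krt8*, which was not called. They are printed 5′ to 3′ on the gene's strand, with capitals marking matches on either strand. The TATA box was searched as TATAAA, the CAAT box by the letters CCAAT, and the GC box as the letters GGGCGG.
Nes, chr3:87970843-87971092, plus strand: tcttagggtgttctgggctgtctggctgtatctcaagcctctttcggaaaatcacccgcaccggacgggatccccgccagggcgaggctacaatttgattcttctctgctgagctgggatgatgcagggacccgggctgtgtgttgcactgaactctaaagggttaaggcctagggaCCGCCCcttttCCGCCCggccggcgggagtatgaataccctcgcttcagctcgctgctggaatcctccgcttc
Vim, chr2:13574061-13574310, plus strand: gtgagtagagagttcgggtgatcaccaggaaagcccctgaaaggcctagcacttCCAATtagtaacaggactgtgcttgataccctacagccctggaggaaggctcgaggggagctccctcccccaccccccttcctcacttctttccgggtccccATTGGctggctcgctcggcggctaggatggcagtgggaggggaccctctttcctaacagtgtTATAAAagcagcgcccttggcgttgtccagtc
Krt8, chr15:102004343-102004592, minus strand: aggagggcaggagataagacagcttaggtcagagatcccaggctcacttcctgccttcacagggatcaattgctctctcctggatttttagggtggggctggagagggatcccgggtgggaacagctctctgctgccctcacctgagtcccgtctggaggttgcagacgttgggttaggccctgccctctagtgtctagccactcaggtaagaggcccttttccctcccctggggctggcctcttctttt
Krt18, chr15:102027966-102028215, plus strand: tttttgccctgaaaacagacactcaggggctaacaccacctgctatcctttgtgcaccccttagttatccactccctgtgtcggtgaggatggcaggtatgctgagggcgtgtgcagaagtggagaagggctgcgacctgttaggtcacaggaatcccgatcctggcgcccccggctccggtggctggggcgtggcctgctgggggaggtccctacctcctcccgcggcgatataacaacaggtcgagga
The *Nes* window held 2 GC boxes, and the *Vim* window held a TATA box 32 bases before the start and 2 CCAAT matches, none of which overlap. The *Krt8* and *Krt18* windows held none of these letters. TAATTA, the core recognised by LIM homeodomain proteins, was searched as well and occurred in none of the 4 windows. Among 32851 mouse promoter windows of this length, 12.4% held the TATA box, 33.8% the CAAT box, 32.7% the GC box and 4.84% the homeodomain core. RefSeq promoter entries matched 6 of the 8 members by symbol. RefSeq and GENCODE place these starts differently. The *Vim* window lies wholly within the GENCODE span of its gene, and the *Nes*, *Krt8* and *Krt18* windows reach into theirs.

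The libraries held 4289984 to 4850393 counts. *Lhx1* averaged 248 ± 12.6 CPM (counts scaled by the TMM-adjusted library size) with doxycycline and 0.421 ± 0.0124 without it in the mutant line, and 296 ± 9.37 with and 2.09 ± 1.13 without it in the wild-type line (SD, n = 3 each). The tissue label was checked against 10 markers of pluripotent and epiblast cells, all of which had counts in every group, with summed levels of 5267 to 5943 CPM over the 12 libraries. Single markers differed between the untreated lines, 3 of the 10 higher in the mutant line and 4 lower, where 23% of all genes tested were called higher and 22.6% lower. *Zfp42*, a marker of naive pluripotency, had 46.1 CPM in the mutant line and 179.5 CPM in the wild-type line (log2 fold change -1.96, edgeR adjusted p = 3.26e-31), and *Fgf5*, a marker of the primed epiblast, had 173 CPM in the mutant line and 86.4 CPM in the wild-type line (1.00, edgeR adjusted p = 1.79e-20). With doxycycline *Zfp42* was again lower in the mutant line (log2 fold change -2.30, edgeR adjusted p = 3.99e-35). *Fgf5* then had 169 CPM in the mutant line and 159 CPM in the wild-type line and was not called (0.09, edgeR adjusted p = 0.214). The part of any difference in state between the lines in the members' levels was not tested. Library 2 of the wild-type line with doxycycline stood apart from its group over all genes, with a chi-square per degree of freedom of 5.84 and 6.28 against the others, which differed from each other by 1.44. Library 3 of the wild-type line without doxycycline had 229 CPM of *Bnip3*, a gene of mitophagy that hypoxia induces, against 58.5 and 63.3 CPM in the others of its group, and it held transcripts of epidermal keratins that are described with *Krt19*. The labels do not say that the 3 libraries of a group came from separate cultures, so p-values measure only how these samples vary, and that variation may be technical.

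*Nes*, the gene of nestin, was about 4-fold higher in the mutant line than in the wild-type line, whether or not doxycycline was given. Without doxycycline its levels were 197, 187 and 180 CPM in the mutant line, against 49.7, 51.8 and 45.5 CPM in the wild-type line. With doxycycline they were 177, 180 and 200.05 CPM in the mutant line, against 44.3, 48.5 and 42.6 CPM in the wild-type line. Every mutant library thus lay far above every wild-type library. The log2 fold change was 1.94 without doxycycline (SE 0.07, 95% interval 1.80 to 2.08, edgeR adjusted p = 3.65e-31) and 2.04 with it (SE 0.07, 95% interval 1.90 to 2.18, edgeR adjusted p = 4.32e-32). In each of these comparisons 42 of the 12322 genes tested had a larger log2 fold change. In bulk samples such as these, fewer cells with a transcript and less of it per cell cannot be told apart.

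*Vim*, the gene of vimentin, was also higher in the mutant line, by a smaller factor. Without doxycycline it stood at 134, 117 and 128 CPM in the mutant line, against 53.3, 59.2 and 52.7 CPM in the wild-type line (log2 fold change 1.19, SE 0.07, edgeR adjusted p = 5.04e-21). With doxycycline it stood at 119, 113 and 113 CPM in the mutant line, against 58.5, 58.2 and 64.4 CPM in the wild-type line (log2 fold change 0.93, SE 0.07, edgeR adjusted p = 8.98e-17). Again no mutant library reached down to the wild-type range. The lines' difference thus averaged 2.29-fold without and 1.90-fold with doxycycline, and the change between these values is the difference of the responses given further on.

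Differences between the lines were common across the transcriptome. Without doxycycline 5 of the 8 members were called (4 higher and 1 lower in the mutant line), as were 45.5% of all genes tested, among them 23% called higher and 22.6% lower. Without doxycycline 6 of the 8 had no overlap between the groups' libraries, against 51.8% of all genes. With doxycycline 4 of 8 were called (3 higher and 1 lower), against 44.4% of all genes (21.9% higher and 22.4% lower), and 5 of 8 did not overlap, against 51.7%. The members' median log2 fold change was 0.30 without and 0.18 with doxycycline, beside medians of 0.0035 and 0.00905 over all genes. The size of the *Nes* and *Vim* differences was less common. Without doxycycline 3.74% of all genes were called at least 2-fold higher in the mutant line, among them *Nes* and *Vim*. With doxycycline 3.63% were, among them *Nes*.

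Markers of the tissues in which nestin and vimentin are best known were called in both directions between the lines. Without doxycycline the summed level of 9 neural progenitor markers was 79.1 to 84.1 CPM in the mutant line and 68.8 to 81.1 CPM in the wild-type line, and with doxycycline it was 83.1 to 92.3 CPM in the mutant line and 94.8 to 109 CPM in the wild-type line. Of these 9, 3 were tested, and without doxycycline 2 were called higher in the mutant line and none lower, where 23% and 22.6% of all genes were. *Map2*, a neuronal microtubule protein, had 17.1 CPM in the mutant line and 8.34 CPM in the wild-type line (log2 fold change 1.03, edgeR adjusted p = 1.33e-06), and *Pax6*, a neural transcription factor, had 6.60 CPM in the mutant line and 3.97 CPM in the wild-type line (0.73, edgeR adjusted p = 0.011). With doxycycline *Map2* was higher in the mutant line, and *Pax6* and *Tubb3* were lower, where 21.9% of all genes were called higher and 22.4% lower. In the wild-type line *Pax6* rose from 3.97 to 9.93 CPM with doxycycline (log2 fold change 1.32, edgeR adjusted p = 2.13e-05). *Tubb3* rose there from 58.6 to 77.4 CPM (0.40, edgeR adjusted p = 0.000222). Neither was called in the response of the mutant line. The 9 fibroblast and mesenchyme markers summed to 22.8 to 27.8 CPM in the mutant line and 19.4 to 34.3 CPM in the wild-type line without doxycycline. Of the 5 tested there, *Twist1*, a mesenchymal transcription factor, was higher in the mutant line (7.03 CPM, against 2.06 CPM in the wild-type line, log2 fold change 1.75, edgeR adjusted p = 2.32e-06) and the collagen gene *Col1a1* was lower (-1.06, edgeR adjusted p = 0.0304). With doxycycline they summed to 23.3 to 27.2 CPM in the mutant line and 21.4 to 22.4 CPM in the wild-type line, and *Twist1* and *Dcn* were called higher in the mutant line. The 6 mesoderm markers summed to at most 3.29 CPM in any library. The part of such cells in the *Nes* and *Vim* levels was not tested.

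**Figure D1:**
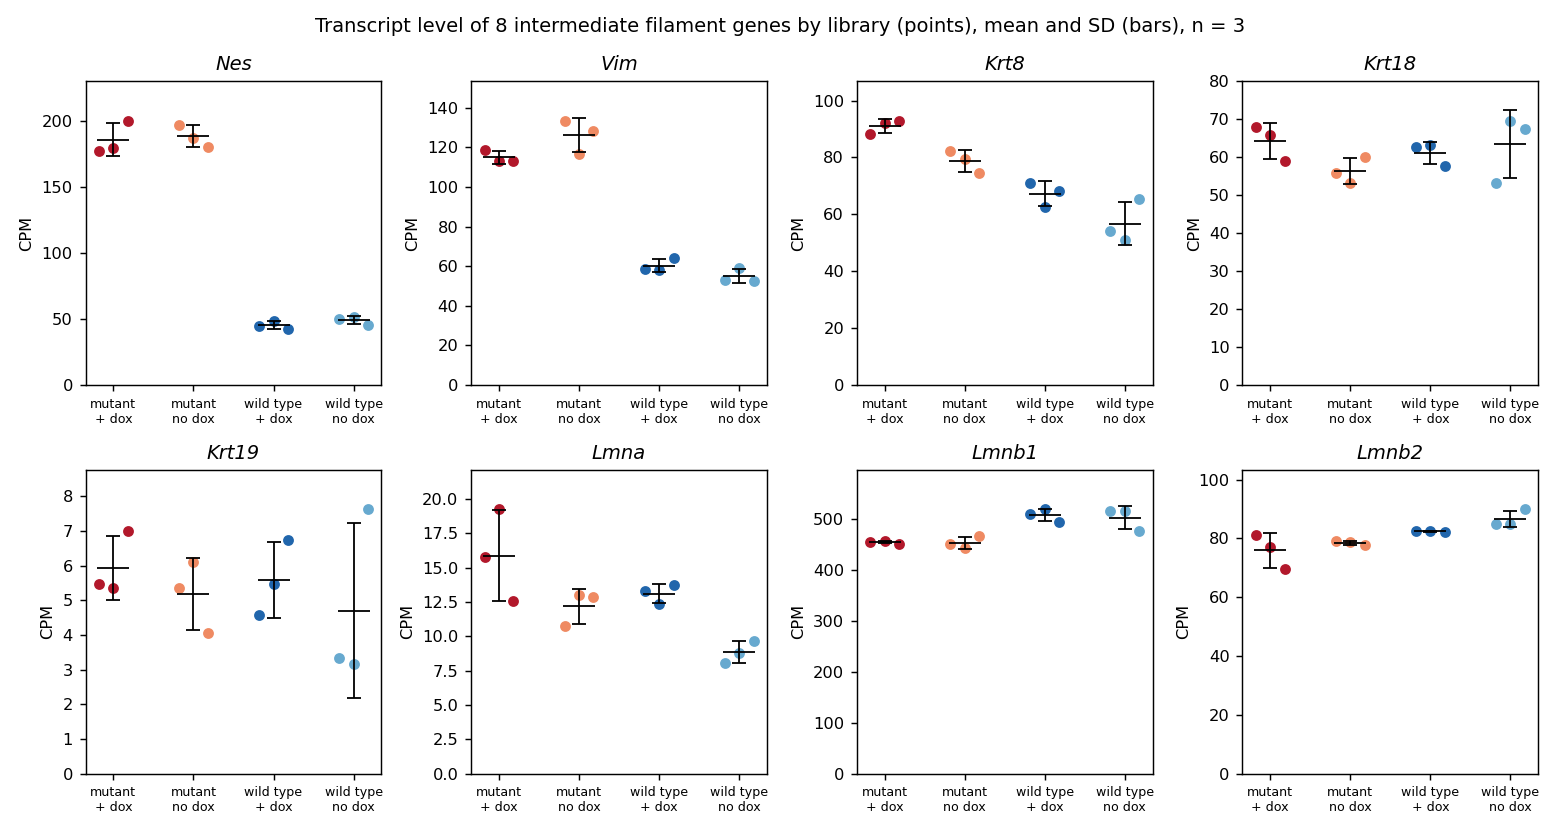
Level in CPM (vertical axis, from 0) of each of the 8 genes in the 12 libraries, by group from left to right (mutant with doxycycline, mutant without, wild type with, wild type without). Points are libraries and bars the mean with SD. *Nes* lies at 177 to 200.05 CPM in the mutant line and 42.6 to 51.8 CPM in the wild-type line, while *Lmnb2* stays between 69.6 and 89.9 CPM in all libraries.

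The type II keratin *Krt8* differed between the lines and its type I partner *Krt18* was not called. Without doxycycline *Krt8* stood at 82.2, 79.6 and 74.4 CPM in the mutant line, against 54.0, 50.9 and 65.2 CPM in the wild-type line, with no overlap (log2 fold change 0.47, SE 0.08, edgeR adjusted p = 1.24e-06). With doxycycline it stood at 88.4, 92.1 and 92.9 CPM in the mutant line, against 71.1, 62.5 and 68.1 CPM in the wild-type line, also with no overlap (log2 fold change 0.44, SE 0.07, edgeR adjusted p = 1.98e-06). *Krt18* stood at 55.8, 53.3 and 60.1 CPM in the mutant line and 53.3, 69.6 and 67.5 CPM in the wild-type line without doxycycline, ranges that overlap. Its log2 fold change was -0.17 (95% interval -0.34 to -0.01, edgeR adjusted p = 0.0865) without doxycycline and 0.07 (95% interval -0.10 to 0.24, edgeR adjusted p = 0.526) with it. Without library 1 of the untreated wild-type group, the lowest of the 3, *Krt18* was called lower in the untreated mutant line (log2 fold change -0.28, edgeR adjusted p = 0.00636). The other single omissions left it uncalled, with values as near to no change as -0.10 (edgeR adjusted p up to 0.404).

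The ratio of *Krt8* to *Krt18* counts within a library followed from this. It was 1.30, 1.40 and 1.58 in the mutant line with doxycycline and 1.47, 1.49 and 1.24 without it, against 1.14, 0.989 and 1.18 in the wild-type line with doxycycline and 1.01, 0.731 and 0.967 without it. All 6 mutant libraries had a higher ratio than all 6 wild-type libraries. The log2 ratio was higher in the mutant line by 0.64 without doxycycline and by 0.37 with it, each at the smallest p that 3 against 3 libraries allow (two-sided exact permutation test, p = 0.1, 0.16 adjusted over 8 comparisons of ratios). Such a design cannot reach a threshold of 0.05. Scaled by transcript length, *Krt8* and *Krt18* were near parity in the mutant line (ratio 0.909 to 1.16 over 6 libraries) and *Krt18* was in excess in the wild-type line (0.536 to 0.864).

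*Krt19*, a further type I keratin of simple epithelia, was scarce, with 14 to 34 counts per library. It had 5.37, 6.11 and 4.06 CPM in the mutant line and 3.33, 3.17 and 7.62 CPM in the wild-type line without doxycycline, and its log2 fold change between them was 0.13 (95% interval -0.42 to 0.68, edgeR adjusted p = 0.723). The highest value belonged to library 3 of the untreated wild-type group, and without that library the log2 fold change was 0.67 (edgeR adjusted p = 0.0775). With doxycycline the levels were 5.48, 5.34 and 7.01 CPM in the mutant line and 4.57, 5.46 and 6.74 CPM in the wild-type line, a log2 fold change of 0.09 (95% interval -0.43 to 0.60). Differences within these intervals were not detectable at this depth.

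That same library held transcripts of stratified skin keratins that, apart from *Krt10*, were close to absent elsewhere. *Krt5* and *Krt14*, the pair of the basal epidermis, had 31 and 30 counts there and at most 1 and 2 in any of the other 11 libraries. *Krt1*, *Krt2* and *Krt10*, keratins of the outer epidermal layers, had 18, 14 and 36 counts there, against 0 to 4, 0 to 1 and 15 to 26 in the others. The sum of these 5 genes was 129 counts in that library and 16 to 30 in the other 11. *Krt8*, *Krt19*, *Lmna* and *Lmnb2* were also highest within their group in this library, whereas *Nes*, *Vim*, *Krt18* and *Lmnb1* were not. The share of all genes that were highest in this library was not counted. The choice of these 5 keratins followed from seeing their values, and the source of their transcripts was not tested.

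**Figure D2:**
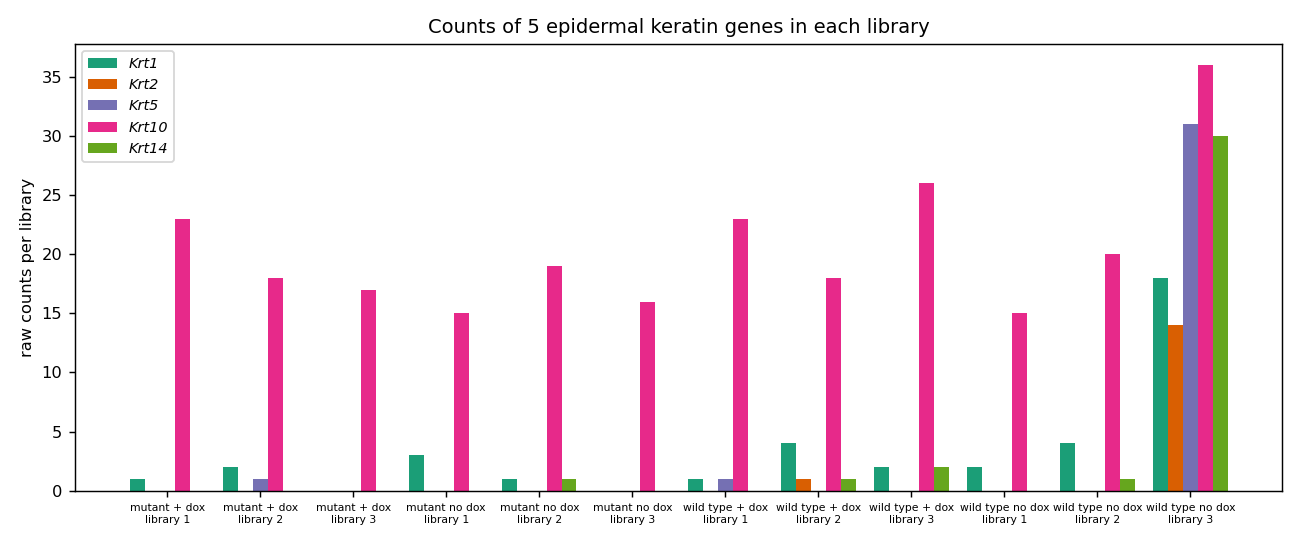
Raw counts (vertical axis) of *Krt1*, *Krt2*, *Krt5*, *Krt10* and *Krt14* in each of the 12 libraries (horizontal axis, mutant line left of wild-type line). Library 3 of the wild-type line without doxycycline holds 31 *Krt5* and 30 *Krt14* counts, against at most 1 and 2 in the other 11 libraries.

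Apart from the named genes, the keratin family was nearly silent. The table held 52 keratin symbols, of which 12 had no count in any library and 7 passed the filter. After the 3 members the most counted was *Krt10*, with 246 counts over all 12 libraries. Markers of trophoblast and of primitive and extraembryonic endoderm, cell types that use KRT8 and KRT18, were present at low levels. Of 10 trophoblast markers, *Tpbpa* and *Prl3d1*, which mark placental cells, had no count, and the sum was 30.3 to 33.9 CPM in the mutant line and 18.8 to 26.0 CPM in the wild-type line without doxycycline. *Eomes*, a trophoblast marker that the epiblast also uses, alone had 18.4 CPM in the untreated mutant line and 9.38 CPM in the untreated wild-type line. With doxycycline the trophoblast sum was 31.8 to 33.1 CPM in the mutant line and 36.5 to 45.0 CPM in the wild-type line, with *Eomes* at 18.9 CPM in the mutant line and 28.9 CPM in the wild-type line. Without *Eomes* the other 9 markers summed to 11.3 to 15.6 CPM in the mutant line and 10.1 to 11.7 CPM in the wild-type line with doxycycline, and to 13.0 to 16.3 CPM in the mutant line and 11.1 to 14.1 CPM in the wild-type line without it, ranges that overlap. The 11 primitive and extraembryonic endoderm markers summed to 23.7 to 34.4 CPM in the mutant line and 18.1 to 20.8 CPM in the wild-type line without doxycycline. With doxycycline they summed to 25.2 to 28.6 CPM in the mutant line and 15.4 to 18.5 CPM in the wild-type line. Of these 11, 4 were tested, and without doxycycline only *Gata4* was called, higher in the mutant line. Of all genes, 23% were called higher and 22.6% lower there. With doxycycline *Gata4* and *Dab2* were called higher in the mutant line, against 21.9% of all genes called higher and 22.4% lower. *Foxa2* was called lower, at 0.425 CPM in the mutant line and 2.88 CPM in the wild-type line (log2 fold change -2.68, edgeR adjusted p = 5.69e-05). *Epcam*, an adhesion molecule of epithelia and stem cells, had 254 CPM in the mutant line and 195 CPM in the wild-type line without doxycycline, and set most of the sum of the surface ectoderm markers (244 to 273 CPM in the mutant line and 194 to 218 CPM in the wild-type line). Of these 7 markers 2 were tested, and in both conditions *Epcam* was called higher in the mutant line and *Grhl3* lower, against the same shares of all genes. Without doxycycline *Grhl3* had 4.37 CPM in the mutant line and 8.82 CPM in the wild-type line (log2 fold change -1.01, edgeR adjusted p = 0.000305). The part of any such cells in the *Krt8* difference was not tested.

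The 2 B-type lamin genes differed little between the lines. The lamin genes are not clustered: in mm10 *Lmnb1* is at chr18:56707813-56753424 (plus strand), *Lmnb2* at chr10:80901203-80918245 and *Lmna* at chr3:88480147-88509956 (both minus strand). *Lmnb1*, the most abundant member, had 450, 443 and 465 CPM in the mutant line, against 515, 514 and 476 CPM in the wild-type line without doxycycline, and was lower in the mutant line without overlap (log2 fold change -0.15, SE 0.04, edgeR adjusted p = 0.00298). With doxycycline it had 455, 456 and 451 CPM in the mutant line, against 510, 518 and 494 CPM in the wild-type line (log2 fold change -0.16, SE 0.04, edgeR adjusted p = 0.00145). *Lmnb2* also had its 3 mutant libraries below its 3 wild-type libraries in both conditions, at 77.6 to 79.0 and 84.9 to 89.9 CPM without doxycycline. It was not called, with log2 fold changes of -0.14 (edgeR adjusted p = 0.0806) without and -0.12 (edgeR adjusted p = 0.161) with doxycycline.

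*Lmna*, the gene of the lamins of differentiated cells, was higher in the untreated mutant line. Without doxycycline it had 10.7, 13.0 and 12.8 CPM in the mutant line, against 8.09, 8.82 and 9.64 CPM in the wild-type line, and the groups did not overlap (log2 fold change 0.46, SE 0.18, edgeR adjusted p = 0.0301). That call rested on 34 to 64 counts per library. It was lost without library 2 or 3 of the untreated mutant group or library 1 or 2 of the untreated wild-type group (edgeR adjusted p 0.0682 to 0.102), and in DESeq2 (adjusted p = 0.107). With doxycycline it had 15.8, 19.2 and 12.6 CPM in the mutant line and 13.3, 12.4 and 13.7 CPM in the wild-type line, which overlap (log2 fold change 0.27, 95% interval -0.04 to 0.58, edgeR adjusted p = 0.156). Without library 3 of the treated mutant group the log2 fold change was 0.42 (edgeR adjusted p = 0.0386). The other single omissions left this difference uncalled, with values down to 0.11 (edgeR adjusted p up to 0.655).

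Fewer members were called in the responses to doxycycline for 16 h than between the lines. In the wild-type line 1 of the 8 was called, *Lmna*, against 5.32% of all genes tested (2.76% called higher). It had 13.3, 12.4 and 13.7 CPM with doxycycline, against 8.09, 8.82 and 9.64 CPM without it, and all treated libraries lay above all untreated ones. The log2 fold change was 0.56 (SE 0.18, 95% interval 0.21 to 0.92, edgeR adjusted p = 0.0488), just inside the threshold. Leaving out any 1 of the 6 wild-type libraries ended the call (log2 fold change 0.51 to 0.63, edgeR adjusted p 0.0621 to 0.166), as did DESeq2 (adjusted p = 0.241), limma-voom (0.0778), the replicate block (0.053) and the fit of the compared libraries alone (0.0544). Of the 8 members, 2 had no overlap between treated and untreated libraries, *Lmna* (higher) and *Lmnb2* (lower), against 18.9% of all genes.

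*Krt8* was not called in the wild-type line. It had 71.1, 62.5 and 68.1 CPM with doxycycline and 54.0, 50.9 and 65.2 CPM without it, ranges that overlap through library 2 with doxycycline, which stood apart over all genes, and library 3 without it, which held the epidermal keratins. Its log2 fold change was 0.24 (SE 0.08), with an edgeR adjusted p of 0.066. When library 3 without doxycycline was left out, *Krt8* was called higher, with a log2 fold change of 0.36 (edgeR adjusted p = 0.00448). It was also called without library 2 of the treated group (0.29, edgeR adjusted p = 0.0357) and without both (0.40, edgeR adjusted p = 0.00201). Since the ranges overlap through these same libraries, leaving them out widens the difference by construction. The other single omissions left *Krt8* uncalled, with log2 fold changes down to 0.17 (edgeR adjusted p up to 0.38).

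The other 6 members were not called in the wild-type line. *Nes* had a log2 fold change of -0.12 (95% interval -0.29 to 0.05), *Vim* 0.13 (-0.03 to 0.29), *Krt18* -0.06 (-0.22 to 0.11), *Lmnb1* 0.02 (-0.07 to 0.10) and *Lmnb2* -0.07 (-0.21 to 0.07). For *Krt19* the interval was wide, -0.31 to 0.79 around 0.24. Of these 6, the intervals of the 5 other than *Krt19* all lay within -0.29 and 0.29.

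None of the 8 was called in the mutant line by edgeR, DESeq2 or limma-voom, against 0.0162% of all genes (2 of 12322) in edgeR, while 4 of the 8 had an unadjusted edgeR p under 0.05. *Krt8* had 88.4, 92.1 and 92.9 CPM with doxycycline and 82.2, 79.6 and 74.4 CPM without it, and was the only member without overlap between the groups, against 10.6% of all genes. Its log2 fold change was 0.21 (SE 0.07, 95% interval 0.07 to 0.35, unadjusted p = 0.00467 and edgeR adjusted p = 0.883). *Lmna* had 0.37 (95% interval 0.06 to 0.68, edgeR adjusted p = 0.999), *Krt18* 0.19 (0.02 to 0.35) and *Vim* -0.13 (-0.26 to -0.01), each with an unadjusted p under 0.05 that did not survive adjustment. Unadjusted p under 0.05 was found for 4.69% of all genes in this comparison.

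The responses of the lines were then compared with each other, as the response of the mutant line minus that of the wild-type line. None of the 8 members was called by edgeR, DESeq2 or limma-voom, against 2.49% of all genes in edgeR, and 2 of 8 had an unadjusted edgeR p under 0.05, against 12.9% of all genes. For *Vim* the difference was -0.27 (95% interval -0.47 to -0.06, unadjusted p = 0.0107, edgeR adjusted p = 0.182), and for *Krt18* it was 0.24 (0.01 to 0.48, unadjusted p = 0.0444, edgeR adjusted p = 0.369). For *Krt8* it was -0.03 (-0.25 to 0.18) and for *Lmna* -0.19 (-0.67 to 0.28), so for these genes, positive in both lines, the responses were not told apart.

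The responses of both lines were also averaged, a comparison added after it was seen that *Krt8* and *Lmna* lay higher with doxycycline in each line. *Krt8* averaged 0.23 (SE 0.05) with an edgeR adjusted p of 0.00687, and *Lmna* 0.47 (SE 0.12) with an edgeR adjusted p of 0.0127, so 2 of 8 members were called, against 2.73% of all genes. Since the pattern had been seen in these libraries, the average is no independent evidence for it. *Krt8* lost its call without library 2 of the untreated wild-type group (edgeR adjusted p = 0.0585), *Lmna* without library 1 of the untreated mutant group (0.0515) or library 2 of the treated mutant group (0.0963), and both in DESeq2 (adjusted p = 0.0662 and 0.124).

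**Figure D3:**
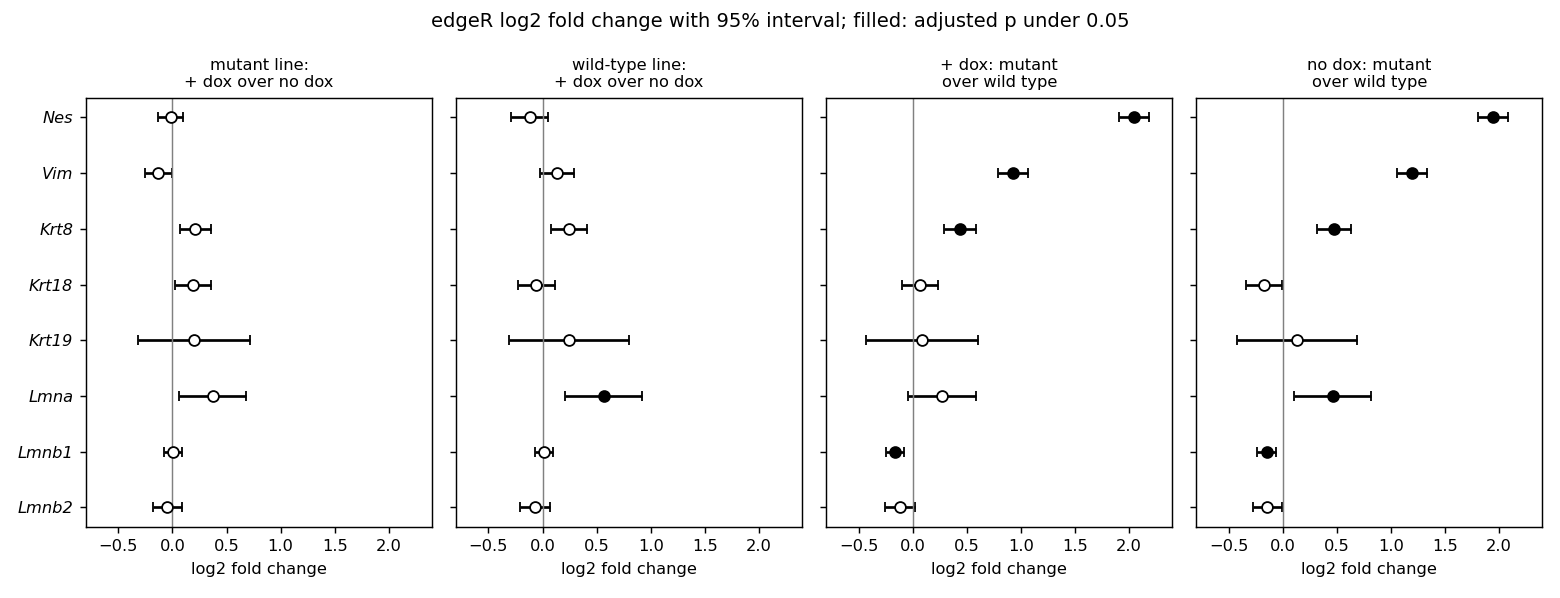
Log2 fold change (horizontal axis, edgeR) of the 8 genes with 95% interval in 4 comparisons, from left to right the response of the mutant line, the response of the wild-type line, and mutant over wild type with and without doxycycline. Filled points have an adjusted p under 0.05. *Nes* lies at 2.04 and 1.94 in the line comparisons and at -0.02 and -0.12 in the responses.

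Scaling by transcript length allowed the members to be ranked within a group. *Lmnb1* was highest in all 4 groups, at 160 and 159 CPM per kb in the mutant line and 178 and 177 CPM per kb in the wild-type line, with and without doxycycline in that order. In the mutant line *Vim* came second (52.5 and 57.5 CPM per kb), followed by *Krt8* and *Krt18*, which overlapped, then *Nes* (30.3 and 30.7) and *Lmnb2* (21.5 and 22.2). In the wild-type line *Krt18* came second (42.6 and 44.2 CPM per kb), followed by *Krt8*, *Vim* and *Lmnb2*, and *Nes* lay below all of them at 7.37 and 7.998 CPM per kb. *Lmna* and *Krt19* were lowest everywhere, at 2.80 to 5.03 CPM per kb, and overlapped in every group. *Krt8* and *Vim*, and *Vim* and *Lmnb2*, also overlapped in the untreated wild-type group.

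The make-up of the cytoplasmic filament transcripts differed accordingly. The 5 genes summed to 178 ± 1.09 and 171 ± 6.01 CPM per kb in the mutant line with and without doxycycline, against 115 ± 1.47 and 109 ± 8.99 CPM per kb in the wild-type line (SD, n = 3 each). Keratins alone summed to 95 ± 1.82 and 82.8 ± 1.34 CPM per kb in the mutant line and 80.5 ± 2.01 and 76.1 ± 9.17 CPM per kb in the wild-type line, so most of the gap lay in *Nes* and *Vim*. *Nes* made up 17.96% ± 0.616 of the sum in the untreated mutant line and 7.37% ± 0.918 in the untreated wild-type line. *Vim* made up 33.6% ± 1.26 and 23.1% ± 2.15 in the same groups, and *Krt18* 23.0% ± 1.40 and 40.3% ± 2.96. Among the lamins *Lmnb1* made up 85.8% to 86.6% of the sum in all 4 groups, while *Lmna* took 2.69% ± 0.527 and 2.09% ± 0.215 in the mutant line and 2.02% ± 0.144 and 1.38% ± 0.165 in the wild-type line, with and without doxycycline in that order.

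**Figure D4:**
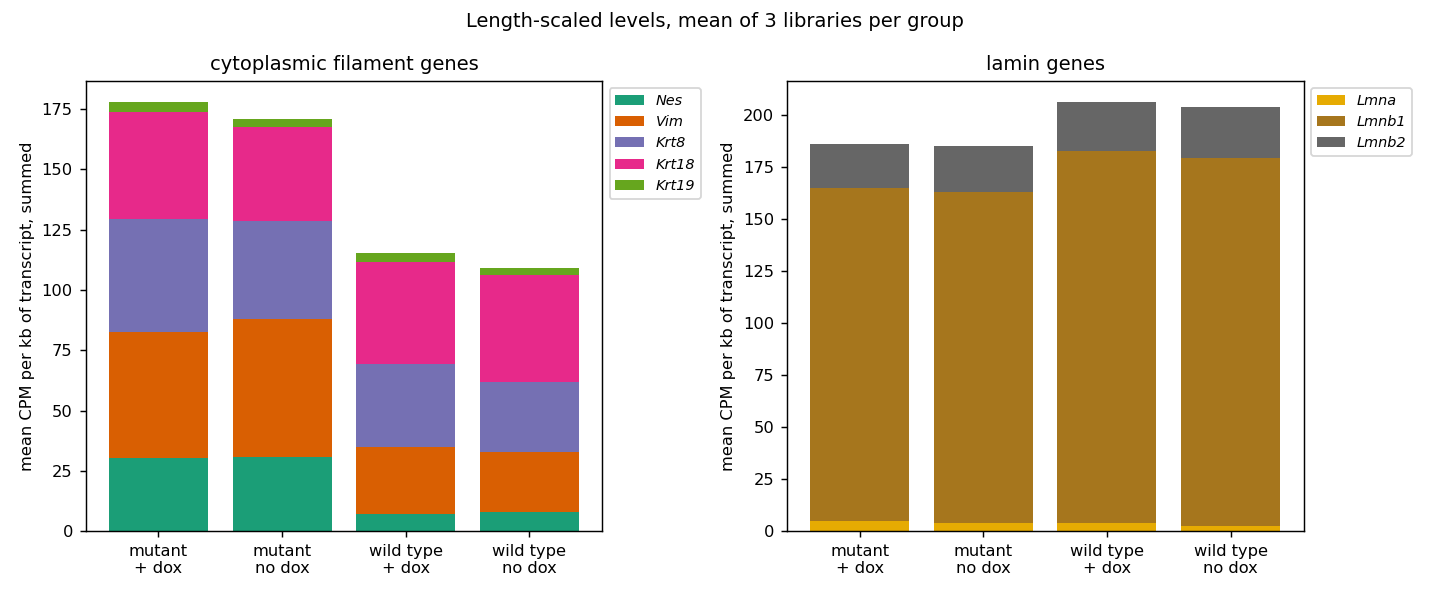
Mean level per kb of the longest transcript (vertical axis, CPM per kb, n = 3 per group) stacked by gene, for the 5 cytoplasmic filament genes (left) and the 3 lamins (right), in the same group order. The cytoplasmic sum is 178 and 171 in the mutant line and 115 and 109 in the wild-type line, and *Lmnb1* makes up most of the lamin sum everywhere.

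The ratio of *Lmna* to B-type lamin counts was lowest in the untreated wild-type group. It was 0.0295, 0.0361 and 0.0241 in the mutant line with doxycycline and 0.0203, 0.025 and 0.0237 without it. It was 0.0224, 0.0206 and 0.0238 in the wild-type line with doxycycline and 0.0135, 0.0147 and 0.017 without it. All 9 other libraries lay above the 3 of that group. The log2 ratio was higher by 0.57 in the wild-type line with doxycycline than without it, and by 0.61 in the untreated mutant line than in the untreated wild-type line (two-sided exact permutation test, p = 0.1 each, the smallest possible, 0.16 adjusted over 8 comparisons).

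**Figure D5:**
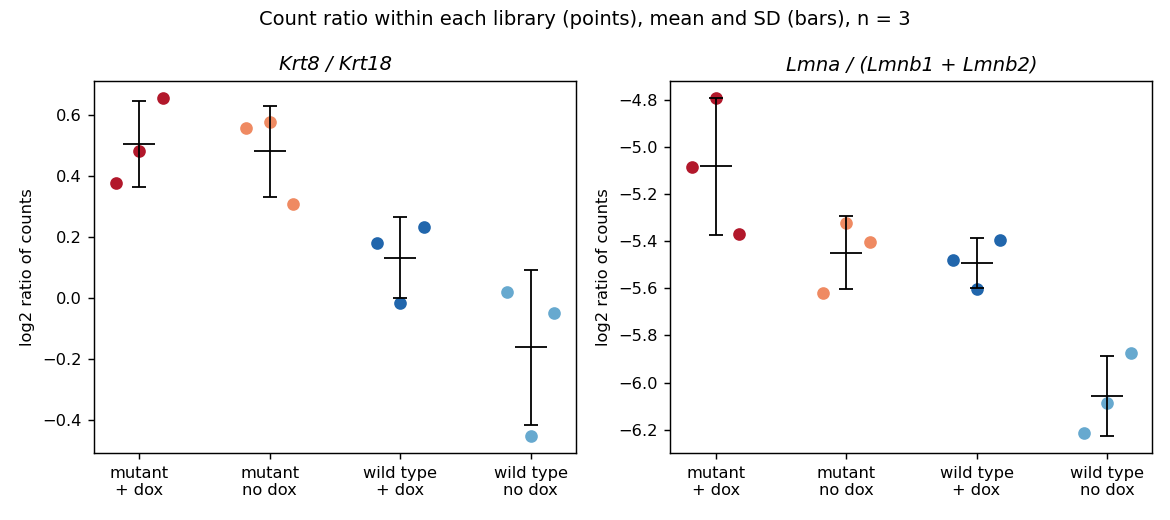
Log2 ratio of counts within each library (vertical axis) for *Krt8* over *Krt18* (left) and *Lmna* over the sum of *Lmnb1* and *Lmnb2* (right), by group in the same order. Points are libraries and bars the mean with SD. The *Krt8* ratio is higher in all 6 mutant libraries than in all 6 wild-type libraries, and the *Lmna* ratio is lowest in the 3 untreated wild-type libraries.

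Other intermediate filament genes were read from a fixed list of 30 relatives, of which 13 were abundant enough to be tested. In the wild-type response 1 of 13 was called (5.32% of all genes), *Ina*, which encodes the neuronal filament protein internexin. It averaged 104 ± 2.16 CPM with doxycycline and 62.3 ± 5.71 CPM without it in the wild-type line (log2 fold change 0.74, SE 0.07, edgeR adjusted p = 4.37e-12), while the mutant line had 67.4 ± 2.22 CPM with and 68.9 ± 3.84 CPM without it. The difference of its responses was -0.78 (SE 0.10, edgeR adjusted p = 1.93e-07). All 3 treated wild-type libraries lay above the other 9. *Nes*, in contrast, had a difference of responses of 0.10 (95% interval -0.10 to 0.31, edgeR adjusted p = 0.761).

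Without doxycycline 2 of the 13 relatives were higher in the mutant line and 3 lower, against 23% and 22.6% of all genes, with a median log2 fold change of -0.06. *Nefh*, the heavy neurofilament chain, averaged 21.4 ± 3.96 CPM in the mutant line and 33.6 ± 5.50 CPM in the wild-type line (log2 fold change -0.64, SE 0.12, edgeR adjusted p = 2.12e-05). *Iffo2*, a filament family member of little-known function, averaged 22.2 ± 1.53 CPM in the mutant line and 13.3 ± 3.41 CPM in the wild-type line (log2 fold change 0.73, SE 0.15, edgeR adjusted p = 3.58e-05). *Krt42*, a type I keratin, was lower in the mutant line (log2 fold change -1.23, SE 0.35, edgeR adjusted p = 0.00319), but not without library 2 of the untreated wild-type group (-0.81, edgeR adjusted p = 0.104). The response of *Iffo2* also differed between the lines (-0.71, SE 0.21, edgeR adjusted p = 0.0458), a call that was lost in DESeq2 (adjusted p = 0.281), in limma-voom (0.0683) and without any 1 of 10 of the 12 libraries (edgeR adjusted p 0.0577 to 0.185).

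Proteins that anchor filaments to junctions were called in both directions. Of 17 tested genes of linkers and desmosomes, 2 rose and 1 fell in the wild-type response (median log2 fold change 0.02), where 5.32% of all genes were called. *Pkp3*, a plakophilin of desmosomes, averaged 11.97 ± 1.18 CPM with and 6.82 ± 1.42 CPM without doxycycline (log2 fold change 0.81, SE 0.20, edgeR adjusted p = 0.00405). *Dsp*, desmoplakin, which ties keratin filaments to desmosomes, averaged 35.4 ± 3.06 CPM with and 25.8 ± 0.191 CPM without it (log2 fold change 0.46, SE 0.12, edgeR adjusted p = 0.0083). *Itga6*, an integrin chain of hemidesmosomes, averaged 97.6 ± 6.03 CPM with and 124 ± 1.61 CPM without it (log2 fold change -0.35, SE 0.06, edgeR adjusted p = 4.05e-05). The call of *Dsp* was lost without library 2 of the treated group (edgeR adjusted p = 0.0765) and in DESeq2 (adjusted p = 0.0581), and that of *Pkp3* without library 2 of the untreated group (edgeR adjusted p = 0.0706) and in DESeq2 (adjusted p = 0.0666).

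Between the untreated lines 4 of these 17 were higher in the mutant line and 5 lower, against 23% and 22.6% of all genes, with a median log2 fold change of -0.26. *Dsc2*, a desmosomal cadherin, was higher (log2 fold change 0.94, SE 0.20, edgeR adjusted p = 0.000131). *Jup*, plakoglobin, was lower (-0.24, SE 0.06, edgeR adjusted p = 0.00107), and so was *Pkp2*, a plakophilin (-0.31, SE 0.08, edgeR adjusted p = 0.00174), whose call was lost without library 3 of the untreated wild-type group (-0.19, edgeR adjusted p = 0.0657).

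Of 24 tested genes of the nuclear envelope and of lamin processing, 2 rose and none fell in the wild-type response, where 5.32% of all genes were called. *Syne2*, which encodes a giant nesprin linking the nucleus to the cytoskeleton, averaged 39.2 ± 4.88 CPM with and 26.0 ± 8.06 CPM without doxycycline (log2 fold change 0.59, edgeR adjusted p = 0.0355), and *Ankle2*, a LEM-domain protein needed to rebuild the envelope after mitosis, rose by 0.21 (edgeR adjusted p = 0.0488). Both calls were lost without single libraries (*Syne2* without 4 of the 6, edgeR adjusted p 0.0851 to 0.105, and *Ankle2* without 5 of the 6, 0.0567 to 0.216), and with the replicate block (0.0618 and 0.0613). Both were also lost in the edgeR fit of only the libraries compared (adjusted p = 0.251 and 0.0931). *Ankle2* further lost its call in DESeq2 (adjusted p = 0.258), in limma-voom (0.0543) and in edgeR without the filter (0.0676). Without doxycycline 4 of the 24 were higher in the mutant line and 6 lower, against 23% and 22.6% of all genes. *Fnta*, the shared subunit of the enzymes that prenylate lamins and other proteins, averaged 108 ± 7.77 CPM in the mutant line and 153 ± 10.7 CPM in the wild-type line (log2 fold change -0.50, SE 0.06, edgeR adjusted p = 3.52e-09). *Sun1*, a partner of nesprins, was lower (-0.39, SE 0.07, edgeR adjusted p = 1.09e-05), and *Tmem43*, an inner nuclear membrane protein that binds lamins, was higher (0.70, SE 0.11, edgeR adjusted p = 3.63e-07).

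Genes whose profiles over the 12 libraries lay closest to those of *Nes*, *Vim* and *Lmna*, the members that varied most between groups, were sought among 9096 genes with a mean of at least 10 CPM. Likeness was the root mean square difference of centred log2(CPM + 1) values. Closest to *Nes* were *Cnn1* (0.155), *Cntfr* (0.158) and *Efha1* (0.173). *Cnn1*, the actin-binding calponin of smooth muscle, averaged 57.2 and 49.7 CPM in the mutant line and 12.4 and 12.3 CPM in the wild-type line, with and without doxycycline. Closest to *Vim* were 2610008E11Rik (0.0922), *Itm2b* (0.0928) and *Uap1l1* (0.107), and closest to *Lmna* were *Ube2d1* (0.159), *Fyn* (0.167) and *Shb* (0.172). *Fyn*, a kinase of the Src family, averaged 40.7 and 37.6 CPM in the mutant line and 32.3 and 25.2 CPM in the wild-type line, with and without doxycycline.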

How the data were processed

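RNA was sequenced from 12 libraries of mouse embryoid bodies, made with a TruSeq RNA kit per the labels. The authors deposited raw counts of reads per gene symbol. Per the submitters' processing notes, Trimmomatic 0.33, TopHat2 2.1.1, limma and the mm10 genome were used. The counting tool, annotation and strand setting are unstated in the sources used here, so antisense or near-identical genes may share counts.

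The counts were tested with edgeR 4.0.16 (R 4.3.3): TMM scaling, filterByExpr (minimum count 10, 12322 genes kept), all 12 libraries in 1 quasi-likelihood fit without a replicate block, and Benjamini-Hochberg adjustment over all genes tested. A gene was called at an adjusted p under 0.05. SEs are the log2 fold change over the root of F, and 95% intervals use the fit's degrees of freedom. Levels per kb use the longest GENCODE M21 transcript. Replicates of a group differed by more than sampling noise (chi-square per degree of freedom 1.11 to 6.28). Same-numbered libraries did not deviate together, so numbers were not taken as pairs. Alternatives were DESeq2 1.42.0, limma-voom (limma 3.58.1), other scalings, no filter, the replicate block, only the libraries compared, and leaving out libraries. Ratios were compared by exact permutation tests (scipy 1.17.1). Intervals of counts and fits cover only what these libraries vary in.

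The members, gene lists and marker lists were chosen with earlier results of these data known. Named genes are the 8 members, *Lhx1*, up to 3 called genes per list with the smallest adjusted p in 3 comparisons, and the 3 genes most like each of 3 members. *Bnip3*, the epidermal keratins and the marker genes given with values were chosen once their values had been seen.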

Additional observations from a re-analysis of the deposited data

Results flagged for a closer look

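Among the 8 members and the named partner genes, the response to doxycycline differed between the lines for 2 genes by the edgeR test of the difference itself. Both were partner genes, none of the 8 members was called, and 2.49% of all genes tested were. A call in this same test was among the rules for naming partner genes, so the count of 2 is no independent result. For *Ina* the response of the mutant line minus that of the wild-type line was -0.78 (SE 0.10, adjusted p = 1.93e-07), with the 3 treated wild-type libraries at 102 to 106 CPM and the other 9 at 56.3 to 71.5 CPM. For *Iffo2* it was -0.71 (SE 0.21, adjusted p = 0.0458), a call that was lost in DESeq2 (adjusted p = 0.281), in limma-voom (0.0683) and without any 1 of 10 of the 12 libraries (edgeR adjusted p 0.0577 to 0.185).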

How the results depend on the processing

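The line differences of *Nes*, *Vim*, *Krt8* and *Lmnb1* kept their direction and their call under every alternative run. In DESeq2 fewer genes were called in the wild-type response (380, against 655), the difference of responses (153, against 307) and the mean response (168, against 336). In the edgeR fit of only the libraries compared, more genes were called in the mutant response (5, against 2). The 1 member called in the wild-type response, *Lmna*, was lost in DESeq2, limma-voom, the replicate block and the fit of only the libraries compared, leaving 0 members called in each. Its log2 fold changes there were 0.57, 0.56, 0.57 (adjusted p = 0.053 with the replicate block) and 0.56. The replicate numbers did not pair the libraries. Without untreated wild-type library 3 and treated wild-type library 2, *Lmna* had 0.67 (not called) and *Krt8* 0.40 (called) in the wild-type response, while *Lmnb1* changed sign there (-0.041), in the difference of responses (0.049) and in the mean response (-0.016). DESeq2 also ended the calls of *Lmna* between untreated lines (0.46) and of *Krt8* (0.23) and *Lmna* (0.47) in the mean response, where it called 0 members. *Vim*, near 0 in the mean response, was -0.0018 without the filter, 0.0 with the block and -0.0032 without both libraries. The cause was not tested.

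Leaving out 1 library at a time gave these ranges of log2 fold changes. In the wild-type response 0 to 1 members were called (*Krt8* in place of *Lmna* where 1 remained), with *Krt8* at 0.17 to 0.36, *Krt18* at -0.17 to 0.0145, *Lmna* at 0.51 to 0.63 and *Lmnb1* at -0.022 to 0.036. In the mutant response *Nes* lay at -0.076 to 0.016, *Lmnb1* at -0.011 to 0.025 and *Lmnb2* at -0.098 to 0.013. The difference of responses was -0.15 to 0.040 for *Krt8*, -0.59 to 0.18 for *Krt19*, -0.030 to 0.026 for *Lmnb1* and -0.026 to 0.085 for *Lmnb2*. Between untreated lines *Krt18* lay at -0.28 to -0.10, *Krt19* at -0.092 to 0.67 and *Lmna* at 0.40 to 0.54, and between treated lines *Krt19* at -0.051 to 0.25 and *Lmna* at 0.11 to 0.42. In the mean response 1 to 2 members were called, with *Vim* at -0.027 to 0.028, *Krt8* at 0.19 to 0.28, *Lmna* at 0.39 to 0.54 and *Lmnb1* at -0.0087 to 0.021. The mutant response of the log2 *Krt8* to *Krt18* ratio lay at -0.061 to 0.089. *Lmna* had 34 to 90 counts and *Krt19* 14 to 34 per library, so counting error limits the precision of their values.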
